A study of Rattus norvegicus with 2 samples.

Results

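The CC and CXC chemokine genes Ccl2, Ccl3, Ccl4, Ccl7, Ccl20, Cxcl1, Cxcl2, Cxcl3, Cxcl10 and Cxcl16 were examined in urine RNA of rats with and without ureteral obstruction. The 10 genes were taken by symbol from a list given for this work, and each was found once among the 16484 entries of the deposited table that carry an NCBI gene ID made only of digits (113011 entries in all). Total RNA was sequenced from 1 urine library labelled UUO and 1 labelled WT, and every direction below rests on reading the table's UrRf column as UUO and its Urc column as WT. Both came from Sprague Dawley rats given as 8 weeks old (postnatal day 56). UUO rats had the right ureter ligated (unilateral ureteral obstruction, which leads to scarring of the kidney), and WT rats were the sham group, which had the operation without ligation. Urine of either group came through a catheter placed in the ureter, 2 weeks (14 days) after surgery. No transgene, allele or drug is named for either group, and how many rats contributed to a library is not stated. With 1 library per group there is no replicate error, no test was possible, and the library and the group cannot be told apart.

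Chemokines are small secreted proteins that guide leukocytes along concentration gradients through G protein-coupled receptors. They are named CC or CXC by the spacing of their conserved cysteines. CC ligands mainly draw monocytes, macrophages and lymphocytes, while CXC ligands with an ELR motif (Cxcl1, Cxcl2 and Cxcl3) draw neutrophils. Many of these genes are switched on by NF-kB after injury or cytokine exposure, and the obstructed kidney is a well-known site of chemokine production and macrophage entry.

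The promoters of the members are shown as background, and whether a motif bears on the levels in urine was not tested. RefSeq windows of 250 bases before the start site (build GRCr8, which is not the build of the expression values) were at hand for 6 of the 10 genes. Ccl2, Ccl3, Ccl4 and Cxcl3 had no window. The 10-base NF-kB consensus, searched on both strands, was found for 5 of the 6 genes, Cxcl16 being the exception, and in 6.33% of all 33465 windows. The AP-1 motif TGANTCA, searched in the same way, lay in the windows of Ccl7 and Cxcl10 and in 6.34% of all windows, with no overlap with an NF-kB match. The last 100 bases before the start site (200 for Cxcl10) are printed 5′ to 3′ on the strand of the gene, with NF-kB matches in capitals.
Cxcl1, chr14:17479322-17479421 (- strand): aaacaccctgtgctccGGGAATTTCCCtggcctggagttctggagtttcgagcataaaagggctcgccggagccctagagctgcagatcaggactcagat
Cxcl2, chr14:17467256-17467355 (- strand): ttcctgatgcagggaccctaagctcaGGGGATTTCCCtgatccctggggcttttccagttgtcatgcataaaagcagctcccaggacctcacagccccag
Ccl20, chr9:91837059-91837158 (+ strand): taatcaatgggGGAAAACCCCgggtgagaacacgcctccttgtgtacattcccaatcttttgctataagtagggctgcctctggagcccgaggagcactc
Ccl7, chr10:67513995-67514094 (+ strand): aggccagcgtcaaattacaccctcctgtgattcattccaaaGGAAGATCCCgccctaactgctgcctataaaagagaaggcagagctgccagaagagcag
Cxcl10, chr14:15988866-15989065 (+ strand): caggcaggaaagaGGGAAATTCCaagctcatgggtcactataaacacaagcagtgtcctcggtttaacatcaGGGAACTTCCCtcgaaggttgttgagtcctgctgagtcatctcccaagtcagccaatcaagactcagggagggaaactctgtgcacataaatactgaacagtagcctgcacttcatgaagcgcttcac
Cxcl16, chr10:55669951-55670050 (- strand): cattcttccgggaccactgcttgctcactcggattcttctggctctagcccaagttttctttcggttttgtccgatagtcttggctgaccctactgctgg
In Cxcl1 and Cxcl2, neighbours on chromosome 14, the capitals cover 11 bases, from 84 to 74 bases before the start in Cxcl1 and from 74 to 64 in Cxcl2. Cxcl10 held a second match of 11 bases besides 1 of 10. Letters that match a motif do not show that a factor was bound.

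Levels are given as FPKM, the fragments of an entry divided by its length in kilobases and by the size of the library, as the authors deposited them. Chemokine RNA was nearly all on the UUO side. Of the 10 genes, 9 had an FPKM above 0 in UUO urine and 2 in WT urine, against 72.8% and 48.7% of all number-only genes. A listed 0 in WT with a value above 0 in UUO urine was found for 7 members and for 25.3% of all number-only genes. At an FPKM of at least 1, taken here as detected, 8 were seen in UUO and 1, Cxcl16, in WT urine. The summed FPKM of the 10 genes was 377 in UUO and 19.5 in WT urine, and Ccl3 alone made up 77.9% of the UUO sum. Without Ccl3 the UUO sum was 83.4, still above that of WT urine, where Cxcl16 gave nearly all of the sum. Urine is a mixture, so more cells of a kind, more RNA per cell and more RNA outside cells cannot be told apart in these values.

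Of the 8 members detected in UUO urine, 6 were listed at 0 in WT urine. This was the case for 20.5% of the 9278 number-only genes detected in UUO urine. At an FPKM of at least 5 in UUO urine, 4 of 5 members were listed at 0 in WT urine (Ccl2, Ccl3, Cxcl2 and Cxcl3, but not Cxcl16), against 8.59% of 5855 number-only genes. A gene was counted as higher or lower at a difference of at least 1 in log2(FPKM + 1), equal to 2-fold on that scale, among genes with an FPKM of at least 1 in either library. By this rule 7 members were higher and 0 lower in UUO urine. All 7 met the filter through their UUO value alone. Only Cxcl16 reached an FPKM of 1 in WT urine, so no other member could have been called lower. Nothing is read from the count of 0. The same rule called 25.7% of the 9853 genes that met the filter higher and 36.5% lower. This background split depended on the scale of the libraries: rescaled to equal sums it was 35.0% higher and 20.8% lower, by the median ratio of genes 39.8% and 15.6%, and to the same 75th percentile 79.2% and 3.60%. The number of higher members was 7, 9 and 9 under these rescalings. Each rescaling raised UUO values, so no member could become lower under it. The filter passed 8 of the 10 members and left out Ccl4 and Cxcl10. The median difference over all 10 was 1.62, against -0.51 over the genes that met the filter.

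**Figure D1:**
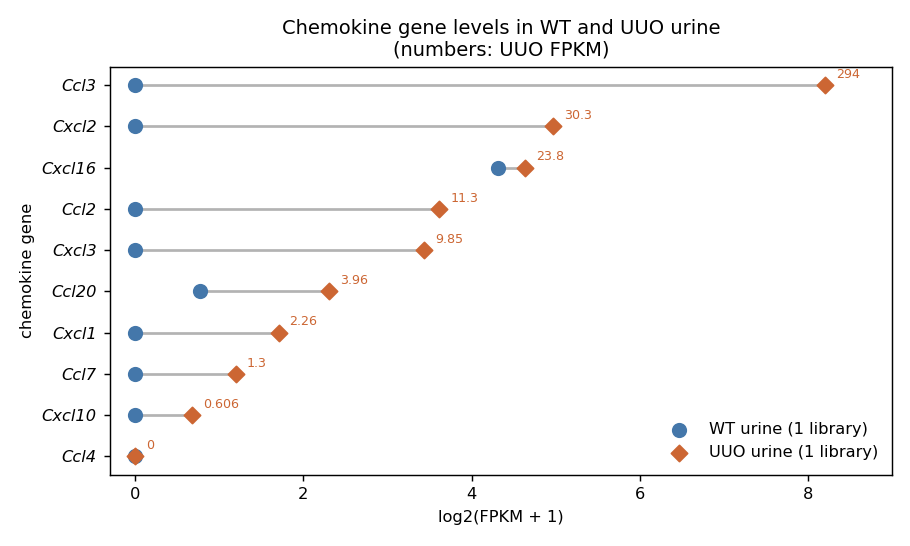
FPKM of the 10 chemokine genes on a log2(FPKM + 1) axis, with a circle for the WT and a diamond for the UUO library (1 library each, so no error bars) and the UUO FPKM written beside the diamond. Apart from Cxcl16 and Ccl20, all circles sit at 0, while UUO values run from 0 for Ccl4 to 294 for Ccl3.

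The paired CC genes Ccl3 and Ccl4 gave the highest and the lowest UUO values. Ccl3 (macrophage inflammatory protein 1 alpha, a ligand of Ccr1; ID 25542, chromosome 10, 70501116 to 70502669 in build rn5, as for all positions of members) reached 294 FPKM in the UUO library and was listed at 0 in the WT library. It ranked 66th of the 16484 number-only genes in UUO urine and stood 9.69 times above Cxcl2, the next member. The other 4 entries at its listed locus, all noncoding database entries, were also at 0 in WT urine and summed to 4.80 in UUO urine, so that Ccl3 held 98.4% of the locus. Ccl4 (macrophage inflammatory protein 1 beta, which draws macrophages and T cells; ID 116637, chromosome 10, 70516366 to 70518349) lies 13697 bases from Ccl3 and was listed at 0 in both libraries. The noncoding entries at the Ccl4 locus summed to 0.905 in UUO and 0 in WT urine. The entries of a locus overlap, and how fragments were divided among them is not known, so a locus sum can count the same fragments more than once.

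Ccl2 and Ccl7, the monocyte chemoattractants that signal through Ccr2, had unequal levels. Ccl2 (ID 24770, chromosome 10, 69047084 to 69048891) had 11.3 FPKM in the UUO library and 0 in the WT library. Ccl7 (ID 287561, chromosome 10, 69058106 to 69059961), 9215 bases away, had 1.30 in the UUO library and again 0 in the WT library. Ccl2 was 8.69 times Ccl7 in UUO urine. Ccl20, the ligand of Ccr6 that draws dendritic cells and Th17 cells (ID 29538, chromosome 9, 88662801 to 88665379), was the only CC member with a WT value, 0.707 FPKM against 3.96 in UUO urine. The difference was 1.54 on the log2 scale, with at most 3 fragments behind the WT value.

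The ELR-bearing CXC genes were all listed at 0 in WT urine, and their UUO values differed widely. Cxcl2 (ID 114105, chromosome 14, 18640311 to 18642357) stood at 30.3 FPKM, Cxcl3 (ID 171551, chromosome 14, 18728019 to 18748597) at 9.85 and Cxcl1 (ID 81503, chromosome 14, 18653031 to 18654811) at 2.26. Cxcl2 was thus 13.4 times Cxcl1 in the same library. These genes are similar copies, and reads shared between them could move FPKM from one to another, which leaves their sum of 42.5 FPKM the firmer value. Noncoding entries held a part of each locus, from 0.469 FPKM at Cxcl2 and 1.48 at Cxcl1 to 2.19 at Cxcl3, and all of them were at 0 in WT urine.

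Of the CXC members, only Cxcl16 and Cxcl10 had differences below 1 in log2(FPKM + 1) on the deposited scale. Cxcl16, a chemokine made as a membrane-bound protein that is recognised by Cxcr6 and shed by Adam10 (ID 497942, chromosome 10, 56817004 to 56828333), was close to equal in the libraries, at 18.8 FPKM for WT and 23.8 for UUO, a ratio of 1.27. It was the only member detected in both libraries, and its difference of 0.32 in log2(FPKM + 1) was below the 2-fold limit. It passed that limit, at 1.19, after rescaling by the median ratio of genes. Its listed locus also holds Zmynd15, at 0 in WT and 8.19 in UUO urine, and 5 noncoding entries, and the whole locus summed to 43.5 for UUO against 21.8 for WT. Cxcl10, the interferon-induced ligand of Cxcr3 (ID 245920, chromosome 14, 17059128 to 17141523), had 0.606 FPKM in UUO urine and was listed at 0 in WT urine. Its locus was listed together with Cxcl11, another Cxcr3 ligand, which had 11.7 FPKM in WT and 2.11 in UUO urine. Summed over the 12 entries of the locus, the level was 5.05 for UUO against 11.7 for WT, the opposite direction to that of Cxcl10 alone, except after rescaling to the 75th percentile.

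**Figure D2:**
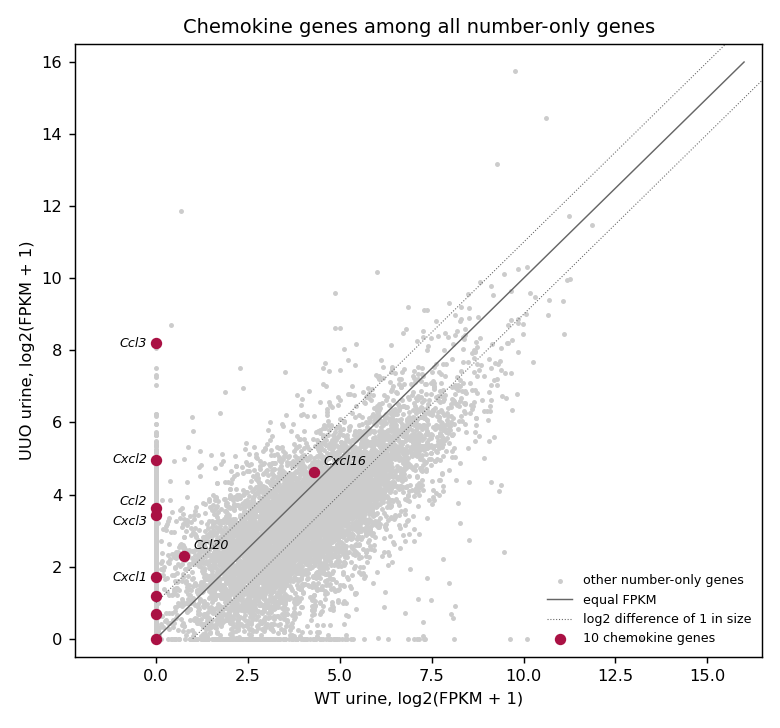
Each grey point is a number-only gene, with log2(FPKM + 1) in WT urine on the horizontal and in UUO urine on the vertical axis, and the 10 chemokine genes are in red. Cxcl16 lies close to the line of equal FPKM, Ccl20 above the dotted line for a difference of 1, and the others on the vertical edge where WT is 0, with Ccl3 at the top.

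How much a value of 0 can say depends on depth. Steps of whole fragments in the FPKM values gave a normalising total of 2115000 fragments for the WT and 2446000 for the UUO library. The paper reports a higher order of reads per sample, and the reason for the gap is not known. The totals are therefore used only as the scale of the FPKM values. On a transcript of 1000 bases, 1 fragment then equalled 0.542 FPKM in the WT and 0.496 in the UUO library, and the 3 fragments that a count of 0 allows equalled 1.63 in the WT library, for counting error only. The UUO values of Ccl7 and Cxcl10 are below that level, so a difference from WT was not detectable at this depth on a transcript of that length. For 7 members the listed span, which is longer than the transcript, sets the greatest number of fragments. It was 989 for Ccl3, 138 for Cxcl2 and 44 for Ccl2 in UUO urine, but 23 for Ccl20, 8 for Cxcl1 and 5 for Ccl7. The order of the lower members therefore rests on few fragments, and without replicates no neighbours in the order can be called different.

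A listed 0 can also come from the way reads were divided among overlapping entries. Ppia (cyclophilin A), a gene that every cell uses, was listed at 0 in UUO urine, although its locus summed to 4.02 FPKM there. For the chemokines this was checked locus by locus. At 7 loci (Ccl2, Ccl3, Ccl4, Ccl7, Cxcl1, Cxcl2 and Cxcl3) all 27 entries were at 0 in WT urine, so the member held no WT signal that a neighbour at its locus had taken. A whole locus at 0 can still come from processing, which this check cannot decide. Hprt1, also a widely used gene, had a locus sum of 0 in both libraries. The Gapdh locus summed to only 0.406 FPKM in WT and 0.367 in UUO urine. Of all number-only genes, 51.3% were listed at 0 in WT and 27.2% in UUO urine.

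Chemokine genes lie in clusters, and most members have other chemokine genes next to them. In the chromosome 10 cluster from Ccl2 to Ccl1 (5 genes over 125 kb), only Ccl2 and Ccl7 were above 0, both in UUO urine, with a sum of 12.6 FPKM. The cluster from Ccl5 to Ccl4 (5 genes over 145 kb) summed to 303 FPKM in UUO urine, from Ccl3 and Ccl6, and to 0 in WT urine. The ELR genes share a chromosome 14 cluster with Pf4 and Ppbp, chemokines stored in platelets. Its 6 genes summed to 228 FPKM in UUO and 0 in WT urine, and Pf4 (182 FPKM) gave most of it. In contrast, the cluster of Cxcl9, Cxcl10 and Cxcl11 summed to 11.7 in WT and 2.72 in UUO urine, the only one of these clusters with WT signal.

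**Figure D3:**
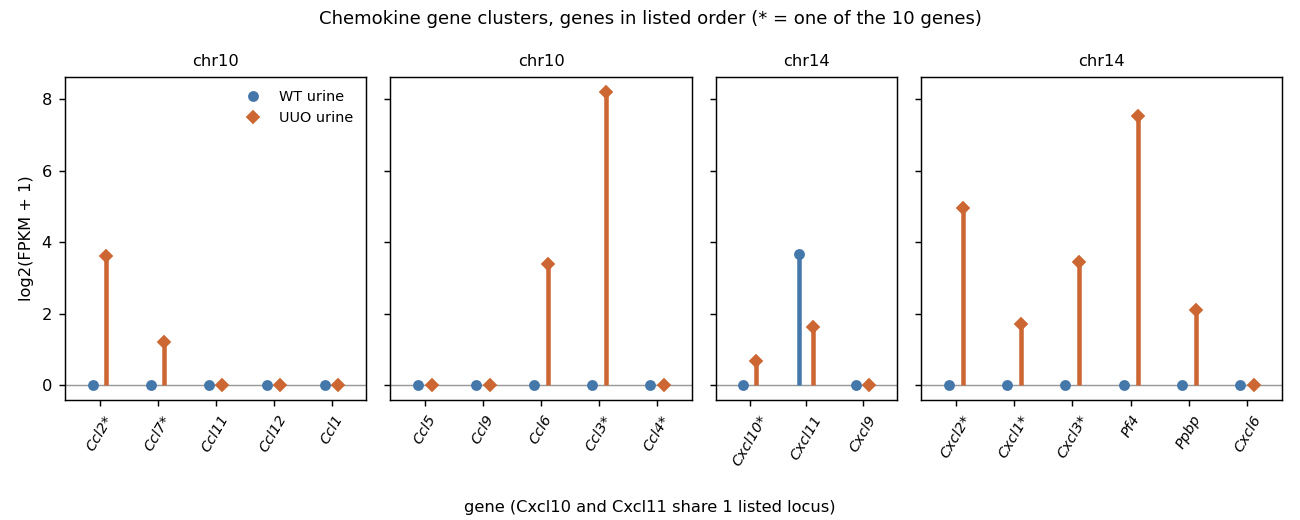
Level of every chemokine gene in the 4 clusters that hold members, in log2(FPKM + 1) on the vertical axis, with genes in the order of the table, blue circles for WT and orange diamonds for UUO urine (1 library each). WT signal appears at Cxcl11 only, and the highest UUO stems are Ccl3 and Pf4.

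Within 100 kb of the members lay 18 number-only genes that are no chemokines. Of these, 10 were likewise seen in UUO urine alone, 4 were above 0 in both libraries and 4 were at 0 in both. Over all number-only genes the share seen in UUO urine alone was 25.3%. The 10 genes had low UUO values, the highest being Zmynd15 (8.19 FPKM) and Med11 (6.80). Scarb2, which lies 24860 bases from the Cxcl10 locus, had 48.3 FPKM in WT and 49.7 in UUO urine.

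Most of the other chemokine genes of the rat were seen in neither library. Of 26 listed, 15 were at 0 in both, 2 were above 0 in WT and 11 in UUO urine. Over all number-only genes, 48.7% were above 0 in WT and 72.8% in UUO urine. Of the 9 other chemokine genes that met the filter, 7 were higher and 1 lower in UUO urine (background 25.7% and 36.5%), with a median difference of 2.03. These 7 were listed at 0 in WT urine and met the filter through their UUO value alone. Pf4 had 182 FPKM, Ccl6 9.45, Ccl17 (a Ccr4 ligand) 3.76 and Ppbp 3.27 in UUO urine, all listed at 0 in WT urine. Both genes with WT signal, Cxcl11 and Cx3cl1, were lower in UUO urine, except after rescaling to the 75th percentile, where they were higher. Cxcl11 was past the 2-fold limit, and Cx3cl1 (fractalkine, membrane-bound like Cxcl16) was just short of it, with 13.9 FPKM in WT and 6.48 in UUO urine and a difference of -0.99.

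Receptor RNA was scarce. Of 20 receptor genes listed, only Ccrl2 and Xcr1 reached an FPKM of 1 in WT urine, and 3 genes did in UUO urine. Over all 16484 number-only genes, 9278 reached it in UUO urine. Above 0 were 2 receptor genes in WT and 12 in UUO urine, against 48.7% and 72.8% of all number-only genes. Ackr3, a decoy receptor of Cxcl12, had 2.67 FPKM and Cxcr4, its signalling receptor, 2.04 in UUO urine, each listed at 0 in WT urine. Ccrl2 was lower, at 5.10 in WT and 0.680 in UUO urine, and Xcr1 had 2.53 in WT and 0.000161 in UUO urine. Receptors that bind the members were named outside the rule for lists, after their values were seen. Ccr6 had 0.851, Cxcr2 0.149 and Ccr1 0.0663 FPKM in UUO urine and 0 in WT urine, while Ccr2, Cxcr3 and Cxcr6 were listed at 0 in both. Summed over the list, receptors came to 7.63 FPKM in WT and 8.85 in UUO urine.

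Genes that induce or restrain chemokines included higher and lower ones. Of 18 inducer and regulator genes that met the filter, 6 were higher, 4 lower and 8 within 2-fold, with a median of 0.41. The counts of 6 and 4 stand beside the 25.7% higher and 36.5% lower over all genes that met the filter, and nothing is read from them. Nfkbia, the NF-kB inhibitor that is itself an NF-kB target, had 42.4 FPKM in WT and 86.5 in UUO urine, a difference of 1.01. Rela, an NF-kB subunit, was lower, with 58.2 in WT and 11.1 in UUO urine, but higher after rescaling to the 75th percentile. Zfp36, which destabilises cytokine mRNA (28.9 and 33.7), and Fos (54.6 and 100.7) were within 2-fold. Jun was listed at 79.0 in WT and 0 in UUO urine, but its locus summed to 79.0 in WT and 266 in UUO urine, and 2 noncoding entries there held the UUO signal. Il1b, chosen after its value was seen, had 25.7 FPKM in UUO urine and was listed at 0 in WT urine. The other cytokines of the list were low or absent. Il17a (1.27), Tnf (0.979) and Il1a (0.641) had UUO values and were listed at 0 in WT urine. Il6 and Ifng were at 0 in both libraries.

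**Figure D4:**
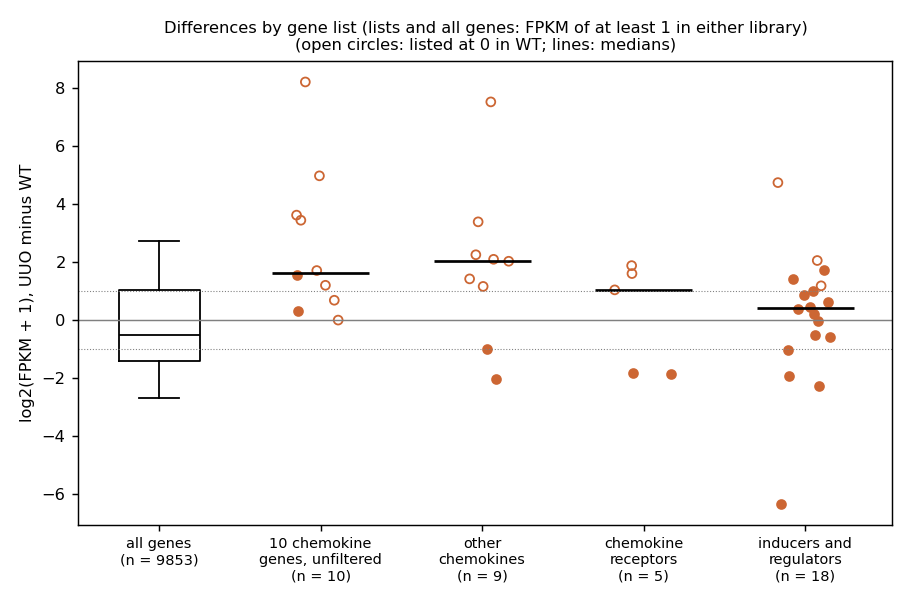
Difference of log2(FPKM + 1), UUO minus WT, for the 10 chemokine genes and the 3 gene lists, with a point per gene (open where WT is listed at 0), a line at the median, and for all 9853 genes past the filter a box from the 25th to the 75th percentile with whiskers at the 5th and 95th. Of the 10 chemokine points, 7 lie above the box, with receptors on both sides of 0. Inducers lie around 0, with Jun far below and Il1b far above.

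Markers of cells that could carry chemokine RNA were read against the 48.7% of all number-only genes above 0 in WT and the 72.8% above 0 in UUO urine. Of 10 neutrophil markers, 0 were above 0 in WT and 7 in UUO urine, with a sum of 0 and 115 FPKM, led by S100a9 (71.7) and S100a8 (27.0), while Mpo, Elane and Fpr1 were at 0 in both. Of 10 macrophage and monocyte markers, 3 were above 0 in WT and 9 in UUO urine, with sums of 32.5 and 76.4, and Cd163 at 0 in both. The 3 with a WT value did not move together on the deposited scale. Lyz2 was higher in UUO urine (7.55 in WT and 26.5 in UUO). C1qb (22.9 in WT and 15.1 in UUO) and Cd14 (2.05 and 1.31) were lower, but within the 2-fold limit. Both were higher in UUO urine after rescaling by the median ratio of genes. The T and NK cell markers summed to 9.26 in WT and 7.16 in UUO urine, with Cd3d, Cd3e, Gzmb and Klrb1a at 0 in both. Red-cell markers summed to 3089 in WT and 86900 in UUO urine. All 10 kidney tubule markers (sums of 217 and 135) were above 0 in both libraries. So were 5 of the 6 urothelium markers (sums of 1147 and 1679), Krt5 being listed at 0 in WT urine. The part of these cells in the chemokine values was not tested.

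Rescaling the libraries to equal sums, by the median ratio of genes, or to the same 75th percentile multiplied every UUO FPKM by a factor of 0.63, 0.89 and 2.66 in log2, before the pseudocount was added, and left every listed 0 at 0. Each rescaling raised UUO values, and 8 members were listed at 0 in WT urine. No member could therefore become lower in UUO urine by rescaling. A pseudocount of 10 in place of 1 left 3 members, Ccl2, Ccl3 and Cxcl2, at 2-fold or more.

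**Figure D5:**
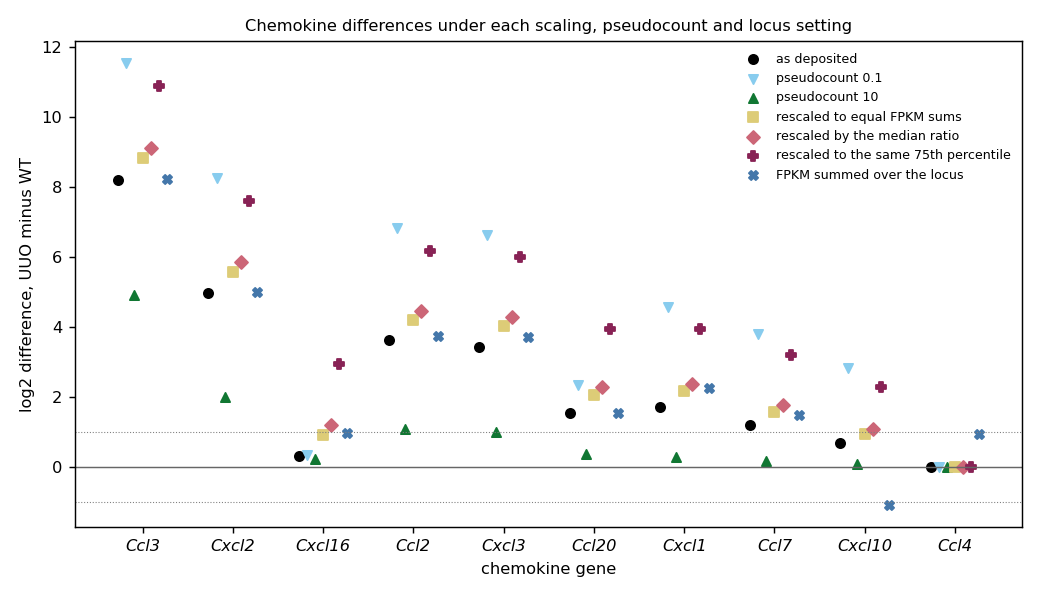
Log2 difference, UUO minus WT, of each chemokine gene under the deposited scale, 2 other pseudocounts, 3 rescalings and the sum over the listed locus, with dotted lines at 1 and -1. Ccl3, Cxcl2 and Ccl2 stay above 1 throughout, and Cxcl10 has a value below 0 when summed over its locus, at -1.07.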

How the data were processed

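Urine RNA of 1 WT and 1 UUO library was analysed. Per the submitters' processing notes, reads were aligned with TopHat2 2.0.9 on a Bowtie2 2.0.6 index of build rn5, and Cufflinks 2.1.1 and Cuffdiff 2.1.1 gave the authors' deposited FPKM, 1 value per entry and library. The total used for scaling is not stated. RNA extraction is given as Trizol in the labels and as a column kit in the study's methods. By those methods urine was centrifuged before storage and again after thawing, and which fraction was kept is not stated. Removal of ribosomal RNA and strand-specific libraries are described for kidney RNA. The conditions are called UrRf and Urc in the table, and they were read as UUO and WT from the series title and the headings of the study's urine lists. Directions would be opposite if these were exchanged. Columns with the authors' fold changes, test statistics, p-values and q-values were not used.

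Symbols came from RefSeq (GRCr8). Values were compared as log2(FPKM + 1) with Python 3.11.15, pandas 2.3.3 and NumPy 2.4.6, and no p-value was computed. A fold on this scale understates the change of low genes and, against a WT value of 0, depends on the pseudocount. Loci are those listed in the table, merged over overlapping entries. The whole-fragment steps were fitted on assembled entries (XLOC names) of 400 to 1200 bases that overlap no other entry, where 93.5% of 186 WT and 99.5% of 3530 UUO values lay within 0.1 of a whole number. The counting and fitting steps were tested on simulated data.

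Besides the members, at most 6 genes per list were named, those with the highest FPKM in either library among genes reaching 1, along with locus neighbours and genes within 100 kb. Members and lists were chosen with earlier results of these data known, so they are no independent evidence. Alternatives were other pseudocounts, 3 rescalings, other filters and fold limits, and FPKM summed over the locus. The list names Ccr8, Ackr1, Ackr4, Relb, Tnfaip3, Upk3b and Trp63 matched no symbol and were not analysed here. Results for a few withheld genes are not reported here.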

Additional observations from a re-analysis of the deposited data

How the results depend on the processing

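No paired analysis was possible because neither group has a second library. A log2 difference was taken as unchanged where its sign and its side of 1 were the same, and a count or share where it lay within 1.5 times. This held for 98 of 138 combinations of 23 results with an alternative. Among the 60 for single members, 50 were unchanged. Many of these could not have changed, so the count does not measure stability. The rescalings and the lower pseudocount can only raise a member that was already higher. Ccl4, listed at 0 in both libraries, stays at 0 in every setting but the locus sum. Cxcl10 turned to -1.07 when summed over its locus. It passed 1 with a pseudocount of 0.1 (2.82), by rescaling to the median ratio (1.09) or the 75th percentile (2.28), as did Cxcl16 under these rescalings (1.19 and 2.94). With a pseudocount of 10 the differences of Ccl7, Ccl20, Cxcl1 and Cxcl3 were 0.18, 0.38, 0.29 and 0.99.

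The median over the 10 members was 0.34 with a pseudocount of 10. The number of higher members was 3 with that pseudocount, 4 at an FPKM of at least 5 and 4 at a 4-fold limit, and 1 was lower by locus sums. Detected members numbered 2 in WT above 0 and 5 in UUO at an FPKM of at least 5. Without Cxcl16, chosen after seeing the data, the median was 1.71.

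With a pseudocount of 10, 3.76% of number-only genes were higher and 17.96% lower. Higher genes made up 39.8% by the median ratio, 79.2% by the 75th percentile and 15.4% with no filter. Lower genes made up 20.8% with equal sums, 15.6% by the median ratio, 3.60% by the 75th percentile and 21.8% with no filter. Other chemokines had 1 higher and 0 lower with a pseudocount of 10, 2 lower with 0.1 and 0 lower by the 75th percentile. Receptors had 0 higher and 0 lower with a pseudocount of 10, 5 higher by the median ratio, and 6 higher and 1 lower by the 75th percentile. Inducers and regulators had 1 higher and 2 lower with a pseudocount of 10, 13 higher by the median ratio, and 17 higher and 2 lower by the 75th percentile. Filters and limits change how many genes can be counted, and a rescaling multiplies all UUO values alike. For the other shifts the cause was not tested.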
